A study of Mus musculus with 18 samples.

Results

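The genes described here encode proteins that detect double-stranded RNA inside the cell and the adaptor MAVS, together with PKR and ADAR1, which bind the same RNA. They were chosen by name as the 7 rows Ddx58, Ifih1, Dhx58, Mavs, Tlr3, Eif2ak2 and Adar of a table of 16248 genes. All 7 were listed, and all 7 passed the filter on low values. Their levels were measured by bulk RNA sequencing of endothelial cells (ECs), the inner lining of blood vessels, sorted from female FVB mice. The tissue of origin was the normal mammary fat pad of wild-type mice (normal ECs), spontaneous breast tumours of MMTV-PyMT transgenic mice (MMTV-PyMT ECs), in which a viral promoter drives the polyoma middle T oncogene in the mammary epithelium, or implanted tumours (implanted ECs). Implanted tumours grew from MMTV-PyMT tumour cells that had been cultured and placed with Matrigel in the fat pad of FVB mice, so the ECs there are those of a host without the oncogene. Each tissue was injected with phosphate-buffered saline (PBS) or with cGAMP, an agonist that binds and activates STING, and was taken 3 h later. The methods of the study name the compound as 3'3'cGAMP. The 6 groups held 3 libraries each, 18 in all. The labels give no age. The methods of the study give 9 weeks for MMTV-PyMT mice when treatment began and 8 to 9 weeks for hosts at implantation, and the age of the normal mice is not given in the sources used here. The labels do not say whether the libraries of a group came from separate mice, or which experiment each came from. A legend of the study gives 3 mice per group and 3 independent experiments. The p-values therefore measure only the spread between these libraries.

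RIG-I (gene Ddx58) and MDA5 (gene Ifih1) are helicases of the cytosol that bind viral or misplaced cellular double-stranded RNA and then engage MAVS, an adaptor on the outer mitochondrial membrane that passes the signal to the kinases of the interferon response. LGP2 (gene Dhx58) is a relative without the signalling domains that modulates both, whereas TLR3 senses double-stranded RNA in endosomes and signals without MAVS. PKR (gene Eif2ak2) is a kinase that stops translation when it binds double-stranded RNA, and ADAR1 (gene Adar) edits adenosine to inosine in such RNA and so keeps cellular RNA from being sensed. Most of these genes are known interferon-stimulated genes. STING serves the sensing of DNA, and the study states that it triggers the kinase TBK1 and leads to type I interferon.

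Whole reads recovered from the values amounted to between 9124935 and 12129416 per library, a 1.33-fold range. Values are FPKM, reads per kilobase of gene divided by a denominator for each library, and that denominator was 0.74 to 0.834 times the recovered reads in implanted ECs under cGAMP and 0.97 to 1.16 times in the other groups. The 8 endothelial markers were all listed, with a sum of 715 to 1731 FPKM. Of 8 leukocyte markers 7 were listed, with a sum of 17.2 to 68.1 FPKM in 17 libraries and 213 FPKM in implanted cGAMP 2, and their defining gene Ptprc (CD45) had a group mean of at most 4.24 FPKM. Epithelial, mural and fibroblast markers were detected in every group. In MMTV-PyMT ECs under PBS the summed epithelial markers, 838 to 905 FPKM, overlapped with the endothelial sum of 715 to 872 FPKM, and in normal ECs under PBS the mural sum was 800.4 to 911 FPKM beside an endothelial sum of 1003 to 1129 FPKM. Whether these cells took part in the values was not tested, and the 3 adipocyte markers were not analysed here. In bulk samples, fewer cells of a type and less RNA per cell cannot be told apart.

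On the mouse genome build GRCm38, Ddx58 lies at chr4:40203773-40239828, Ifih1 at chr2:62595798-62646255, Dhx58 at chr11:100694884-100704271, Tlr3 at chr8:45395665-45411080 and Eif2ak2 at chr17:78852564-78882573, all on the minus strand. Mavs, at chr2:131234063-131248025, and Adar, at chr3:89715022-89753446, are on the plus strand. FPKM values refer to the summed exons of each gene, and the length they imply equalled the GENCODE exon length of all 7. Adar shares 1365 exon bases with Chrnb2 on the other strand, Tlr3 381 with Gm45542, Eif2ak2 221 with 2 noncoding genes, and Dhx58 141 with Dhx58os. Whether the counting used strand is not stated, so reads in those stretches cannot be assigned with certainty. The 2 Adar proteins, an interferon-inducible long form and a constitutive short form, are not separated by gene-level values.

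Promoter windows are shown because 6 of the genes rose together under cGAMP and Mavs did not. Each window runs from 250 bases before to 50 bases after a RefSeq start on GRCm38.p6 and is written 5′ to 3′ on the gene's own strand. Capitals mark matches, on either strand, to the core of the interferon-stimulated response element (ISRE core, a pair of GAAA repeats with 2 free bases between them) or to the shorter IRF site (AANNGAAA), which lies within every ISRE core. Of 7 genes, 6 had a window in the RefSeq table, and Dhx58 is named only.

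Ddx58, chr4:40239776-40240075, minus strand: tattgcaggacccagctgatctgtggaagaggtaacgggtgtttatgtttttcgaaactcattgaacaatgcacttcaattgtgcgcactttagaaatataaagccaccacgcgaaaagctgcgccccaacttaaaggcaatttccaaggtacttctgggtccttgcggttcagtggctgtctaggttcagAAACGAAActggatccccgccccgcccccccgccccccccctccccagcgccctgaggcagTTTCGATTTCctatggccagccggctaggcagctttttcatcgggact

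Ifih1, chr2:62646206-62646505, minus strand: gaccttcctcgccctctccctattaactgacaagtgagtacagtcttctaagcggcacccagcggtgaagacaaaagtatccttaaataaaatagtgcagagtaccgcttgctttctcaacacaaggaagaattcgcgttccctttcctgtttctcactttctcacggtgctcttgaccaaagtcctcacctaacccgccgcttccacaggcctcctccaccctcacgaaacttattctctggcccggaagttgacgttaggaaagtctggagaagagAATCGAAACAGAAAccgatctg

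Eif2ak2, chr17:78882523-78882822, minus strand: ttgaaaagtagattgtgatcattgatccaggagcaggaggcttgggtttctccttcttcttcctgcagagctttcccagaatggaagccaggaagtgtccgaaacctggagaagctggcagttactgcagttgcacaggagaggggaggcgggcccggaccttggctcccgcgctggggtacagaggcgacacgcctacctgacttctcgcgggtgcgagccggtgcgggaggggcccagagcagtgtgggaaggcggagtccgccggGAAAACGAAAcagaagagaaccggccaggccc

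Tlr3, chr8:45410331-45410630, minus strand: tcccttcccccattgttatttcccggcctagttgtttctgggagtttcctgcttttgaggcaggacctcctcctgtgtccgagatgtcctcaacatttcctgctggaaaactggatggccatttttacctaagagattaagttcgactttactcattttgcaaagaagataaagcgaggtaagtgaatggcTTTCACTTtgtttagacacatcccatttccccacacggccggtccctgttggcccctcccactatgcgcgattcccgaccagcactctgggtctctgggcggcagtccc

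Adar, window 3 of 3, chr3:89730468-89730767, plus strand: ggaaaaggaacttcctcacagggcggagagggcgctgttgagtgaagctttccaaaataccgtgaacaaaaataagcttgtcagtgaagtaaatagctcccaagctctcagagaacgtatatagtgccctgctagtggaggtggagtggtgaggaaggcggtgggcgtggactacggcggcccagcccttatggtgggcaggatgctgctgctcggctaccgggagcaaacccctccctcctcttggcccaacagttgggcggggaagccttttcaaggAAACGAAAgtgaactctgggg

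Mavs, chr2:131233813-131234112, plus strand: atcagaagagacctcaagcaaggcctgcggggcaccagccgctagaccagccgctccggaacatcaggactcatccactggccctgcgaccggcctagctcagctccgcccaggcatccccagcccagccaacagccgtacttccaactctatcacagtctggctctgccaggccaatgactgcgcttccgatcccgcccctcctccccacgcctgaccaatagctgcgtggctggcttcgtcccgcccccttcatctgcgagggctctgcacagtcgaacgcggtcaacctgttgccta

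The ISRE core was found in the windows of Ddx58, Ifih1 and Eif2ak2, and in 3.44% of all 32851 windows. Tlr3 and the downstream Adar window held the IRF site without the longer core, and 23.92% of all windows held that site. The windows of Mavs and the other 2 Adar windows held neither. In Ifih1 the ISRE core begins 33 bases after the start, in Eif2ak2 19 and in Ddx58 3 bases after it. A match describes the letters of the window only.

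After cGAMP, RIG-I, MDA5, LGP2, TLR3, PKR and ADAR1 transcripts rose in ECs of all 3 tissues, and Mavs transcripts fell in normal and implanted ECs. MDA5 had the largest change of the 7 in each tissue, 14.1-fold in normal, 16.3-fold in MMTV-PyMT and 22.0-fold in implanted ECs on group means, and ADAR1 had the smallest of the 6 that rose. The values of all libraries follow gene by gene, then the tests.

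**Figure D1:**
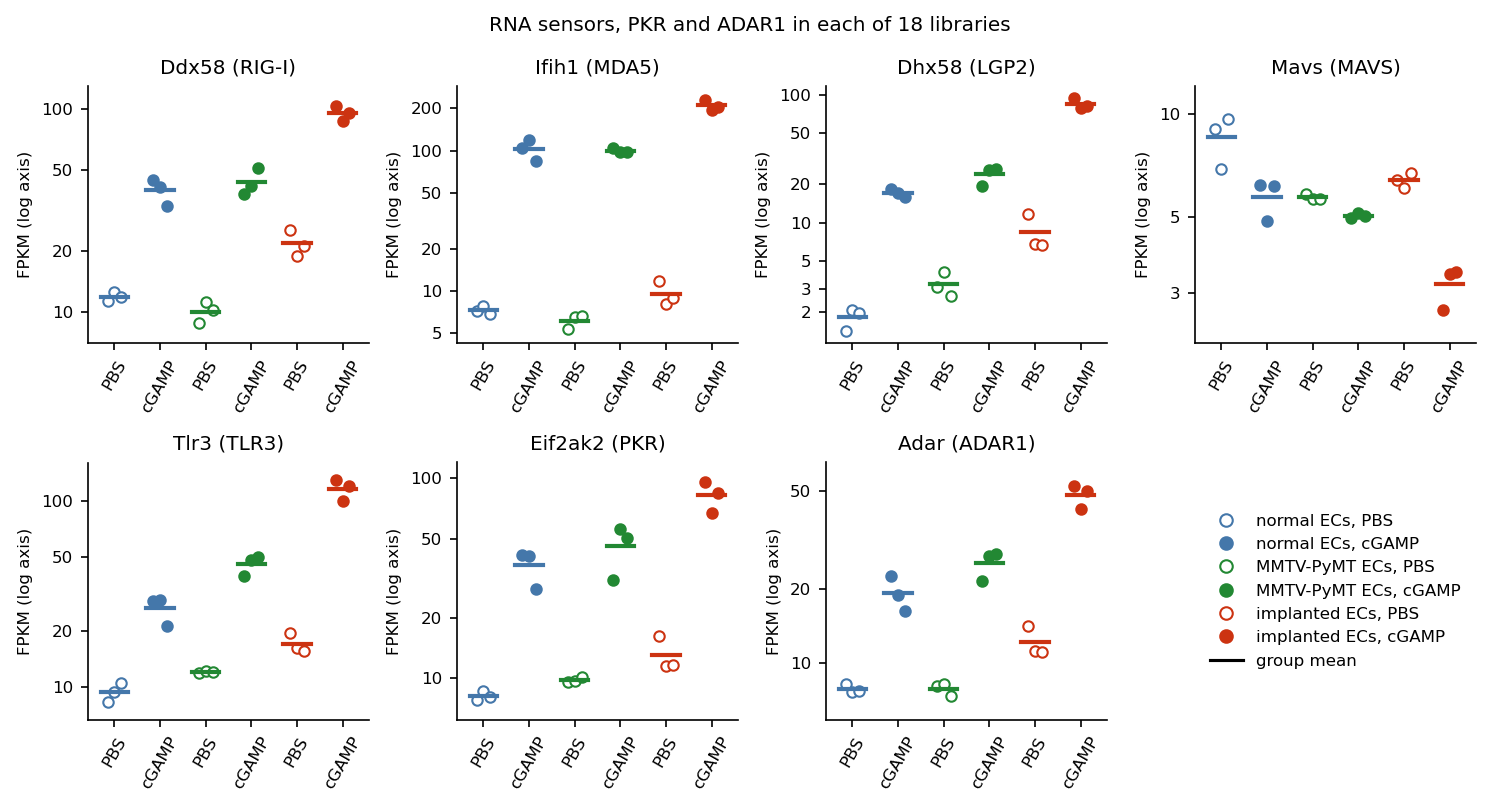
FPKM of each gene on a log axis in the 18 libraries, grouped by tissue and treatment (open circles PBS, filled circles cGAMP, lines group means). In all 3 tissues the group mean under cGAMP lies above that under PBS for 6 genes and below it for Mavs. The Mavs fall in MMTV-PyMT ECs did not pass (limma, adjusted p = 0.420). Implanted ECs under cGAMP have the highest values of those 6 genes.

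Ddx58, the gene of RIG-I, had 11.3, 12.5 and 11.9 FPKM in the 3 normal PBS libraries and 44.9, 41.5 and 33.1 FPKM in the 3 normal cGAMP libraries. MMTV-PyMT ECs went from 8.80, 11.2 and 10.2 FPKM to 38.2, 41.9 and 51.2 FPKM. Implanted ECs had 25.5, 18.8 and 21.3 FPKM under PBS and 104, 87.1 and 95.8 FPKM under cGAMP. Every cGAMP library was above every PBS library of the 18, and the lowest implanted cGAMP library was above all cGAMP libraries of the other tissues, whereas the cGAMP ranges of normal and MMTV-PyMT ECs overlapped. The normal mean rose from 11.9 ± 0.591 to 39.8 ± 6.06 FPKM (SD, n = 3), the MMTV-PyMT mean from 10.1 ± 1.20 to 43.8 ± 6.72 and the implanted mean from 21.9 ± 3.37 to 95.5 ± 8.29. On the log2(FPKM + 1) scale, the changes were 1.65 (SE 0.13, adjusted p = 2.48e-07), 2.01 (adjusted p = 1.81e-08) and 2.08 (adjusted p = 5.88e-09) in the same order (limma, Benjamini-Hochberg over 13983 genes, as for all adjusted p-values given here).

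Ifih1, the gene of MDA5, stood lower than Ddx58 under PBS and higher under cGAMP. Normal ECs had 7.14, 7.82 and 6.81 FPKM under PBS and 105, 119 and 83.6 FPKM under cGAMP. The corresponding MMTV-PyMT values were 5.31, 6.48 and 6.60 FPKM and 103, 97.9 and 98.2 FPKM. Under PBS, implanted ECs had 11.7, 8.08 and 8.91 FPKM, and under cGAMP 231, 196 and 206 FPKM. The highest PBS library had 11.7 FPKM and the lowest cGAMP library 83.6 FPKM, and implanted cGAMP libraries lay above those of the other tissues without overlap. The means were 7.26 ± 0.512 and 102 ± 17.6 FPKM (SD, n = 3) in normal, 6.13 ± 0.715 and 99.8 ± 3.14 in MMTV-PyMT and 9.57 ± 1.92 and 211 ± 17.9 in implanted ECs. Log2 changes were 3.63 (SE 0.13, adjusted p = 2.18e-11), 3.83 (adjusted p = 5.48e-12) and 4.34 (adjusted p = 2.33e-12) in the same order. These changes ranked 17, 29 and 19 from the highest among 13983 tested genes.

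Dhx58, the gene of LGP2, was the lowest of the 7 in normal and MMTV-PyMT ECs under PBS. It had 1.42, 2.06 and 1.95 FPKM in normal ECs under PBS, from as few as 55 recovered reads, and 18.3, 17.1 and 15.9 FPKM under cGAMP. In MMTV-PyMT ECs the values were 3.11, 4.12 and 2.65 FPKM and 19.3, 25.8 and 26.3 FPKM. Implanted ECs had 11.7, 6.80 and 6.65 FPKM under PBS, with replicate 1 well above the others, and 93.7, 79.2 and 81.3 FPKM under cGAMP. No neighbouring groups overlapped when the 6 groups were ordered by their means, from normal PBS to implanted cGAMP. Its normal mean rose 9.45-fold, from 1.81 ± 0.340 to 17.1 ± 1.18 FPKM (SD, n = 3), its MMTV-PyMT mean 7.24-fold to 23.8 ± 3.89 FPKM and its implanted mean 10.1-fold to 84.7 ± 7.84 FPKM. Log2 changes were 2.69 (SE 0.18, adjusted p = 2.92e-08), 2.53 (adjusted p = 3.7e-08) and 3.23 (adjusted p = 1.09e-09). The pseudocount of 1 understates the change of a gene this low, and with 0.1 the normal value was 3.19.

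Mavs, the gene of the adaptor below RIG-I and MDA5, fell in normal and implanted ECs. Normal ECs had 9.06, 6.93 and 9.68 FPKM under PBS and 6.21, 4.86 and 6.16 FPKM under cGAMP. MMTV-PyMT ECs had 5.83, 5.65 and 5.67 FPKM and 4.99, 5.14 and 5.04 FPKM. In implanted ECs the values were 6.43, 6.11 and 6.75 FPKM and 2.68, 3.41 and 3.46 FPKM. In each tissue the 3 cGAMP libraries lay below the 3 PBS libraries, narrowly in MMTV-PyMT ECs, and implanted ECs under cGAMP had the 3 lowest values of the 18. The fall was 1.49-fold on group means in normal ECs, with a log2 change of -0.50 (SE 0.11, adjusted p = 0.00324), and 2.02-fold in implanted ECs, with a log2 change of -0.83 (SE 0.11, adjusted p = 2.17e-05). In MMTV-PyMT ECs the log2 change was -0.15 (95% interval -0.39 to 0.09, adjusted p = 0.420) and did not pass. Mavs rested on 75 to 358 recovered reads per library, the fewest in implanted ECs under cGAMP.

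Tlr3, the gene of the endosomal sensor, had the largest difference in response between tissues. In normal ECs it had 8.33, 9.42 and 10.5 FPKM under PBS and 29.1, 29.4 and 21.3 FPKM under cGAMP. MMTV-PyMT ECs showed 11.9, 12.1 and 12.0 FPKM and 39.7, 48.1 and 50.1 FPKM, and implanted ECs 19.5, 16.1 and 15.6 FPKM and 129, 100.2 and 121 FPKM. The 6 groups did not overlap with their neighbours in order, and the order of tissues, normal, MMTV-PyMT, implanted, was the same under PBS and under cGAMP. The means rose from 9.41 ± 1.07 to 26.6 ± 4.58 FPKM (SD, n = 3), from 12.0 ± 0.0840 to 46.0 ± 5.49 and from 17.1 ± 2.11 to 117 ± 14.9. Log2 changes were 1.40 (SE 0.13, adjusted p = 1.48e-06), 1.85 (adjusted p = 4.37e-08) and 2.702 (adjusted p = 3.38e-10).

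Eif2ak2, the gene of PKR, had 7.78, 8.66 and 8.09 FPKM in normal ECs under PBS and 41.4, 40.9 and 27.9 FPKM under cGAMP. MMTV-PyMT ECs had 9.65, 9.73 and 10.2 FPKM and 31.0, 55.9 and 50.1 FPKM, and implanted ECs 16.3, 11.5 and 11.6 FPKM and 96.0, 67.1 and 84.4 FPKM. Among its cGAMP libraries, normal replicate 3 and MMTV-PyMT replicate 1 were well below their partners, yet none overlapped with a PBS library. The means under cGAMP were 36.7 ± 7.62 FPKM (SD, n = 3) for normal, 45.7 ± 13.0 for MMTV-PyMT and 82.5 ± 14.6 for implanted ECs. Log2 changes of Eif2ak2 came to 2.02 (SE 0.20, adjusted p = 2.19e-06), 2.06 (adjusted p = 1.62e-06) and 2.56 (adjusted p = 4.42e-08).

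Adar, the gene of the RNA-editing enzyme ADAR1, had 8.25, 7.68 and 7.73 FPKM in normal ECs under PBS and 22.5, 19.0 and 16.2 FPKM under cGAMP. The MMTV-PyMT values were 8.06, 8.22 and 7.39 FPKM and 21.5, 27.1 and 27.6 FPKM, and the implanted values 14.1, 11.2 and 11.1 FPKM and 52.0, 42.3 and 49.8 FPKM. Normal and MMTV-PyMT ECs overlapped with each other under either treatment, and implanted ECs were above both. Under cGAMP the means were 19.2 ± 3.16 FPKM (SD, n = 3), 25.4 ± 3.40 and 48.1 ± 5.09, again with normal ECs first and implanted ECs last. Log2 changes were 1.18 (SE 0.12, adjusted p = 4.69e-06), 1.56 (adjusted p = 1.56e-07) and 1.90 (adjusted p = 7.2e-09).

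In normal ECs, 6 of the 7 genes rose, against 13.7% of all tested genes, and 1 fell, against 18.2%. In MMTV-PyMT ECs 6 rose, against 7.42% of all tested genes, and 0 of 7 fell by the limma test, against 4.57% (no member had a lower value at an unadjusted p under 0.05). In implanted ECs 6 rose, against 20.3%, and 1 fell, against 18.8%. All 6 rises were at least 2-fold in each tissue, as were 3.02%, 2.49% and 6.13% of tested genes. A fall of that size was found for 0 of the 7 on the log2(FPKM + 1) scale, against 0.687%, 0.0715% and 1.09%. By voom on recovered reads the Mavs fall in implanted ECs was -1.01 and so just past 2-fold. Wherever a count of 0 of 7 at an adjusted p under 0.05, without a limit on size, is given by limma, voom gave 0 as well. The median log2 change over the 7 was 1.65, 2.01 and 2.56, and over all tested genes -0.04, -0.04 and -0.01. Rescaling to total recovered reads moved the median of all genes to -0.05, -0.14 and -0.25, and the log2 changes of the 6 genes then ran from 1.18 (Adar) to 3.64 (Ifih1) in normal, 1.44 (Adar) to 3.71 (Ifih1) in MMTV-PyMT and 1.59 (Adar) to 4.01 (Ifih1) in implanted ECs. Mavs was then at -0.51, -0.27 and -1.06.

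**Figure D2:**
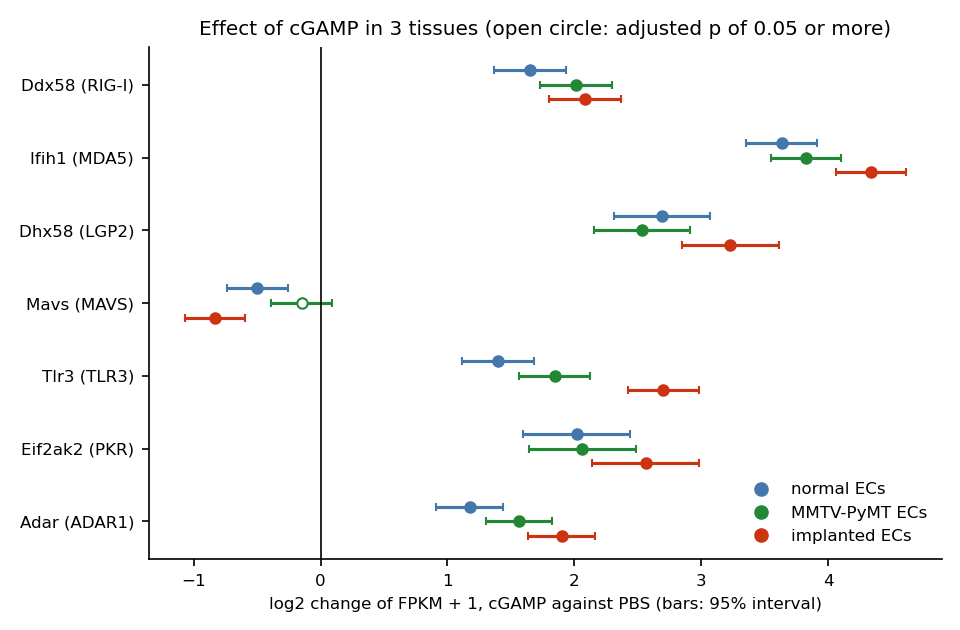
Log2 change of FPKM + 1 by cGAMP against PBS for each gene, with tissues in separate colours and 95% intervals (3 libraries per group, open circle: adjusted p of 0.05 or more). Ifih1 lies farthest to the right in each tissue, from 3.63 to 4.34, and Mavs has the negative estimates, from -0.83 to -0.15.

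Some markers of cell types also moved with cGAMP in normal and implanted ECs. In MMTV-PyMT ECs 0 tested markers passed by limma, where 7.42% of all tested genes rose and 4.57% fell. In normal ECs 1 of 5 mural markers, Cspg4 (log2 change -0.46, adjusted p = 0.0227), and 1 of 8 endothelial markers, Tek (-0.81, adjusted p = 0.00246), fell. Implanted ECs had 1 of 8 endothelial markers lower, Kdr (-0.52, adjusted p = 0.0423). Of all tested genes, 18.2% fell in normal and 18.8% in implanted ECs. List medians were -0.09 (mural) and -0.14 (endothelial) in normal ECs, and 0.17 (endothelial) in implanted ECs. There the means of Pecam1, Cdh5, Tie1, Erg and Emcn were higher under cGAMP, and those of Kdr, Tek and Cldn5 lower. In implanted ECs the summed leukocyte markers were 26.2 to 64.4 FPKM under PBS and 44.9 to 213 FPKM under cGAMP. Of these markers 1 of 7 passed as higher (Cd68, log2 change 0.75), against 20.3% of all tested genes. The mean of each of the 7 was higher under cGAMP, and their median log2 change was 0.76, against -0.01 over all tested genes. Ptprc averaged 0.808 FPKM under PBS and 4.24 FPKM under cGAMP. Summed fibroblast markers were 182 to 212 FPKM under PBS and 198 to 476 FPKM under cGAMP. Of these, 3 of 4 passed as higher (Col1a1, Dcn and Lum), against the same 20.3%, and the list median was 0.72. The part of these cells in the levels of the 7 genes was not tested. Implanted cGAMP 2 had the most leukocyte and fibroblast marker RNA. Of its group it also had the highest epithelial sum (533 FPKM) and the lowest endothelial sum (1031 FPKM). Its values of the 6 genes that rose were the lowest of the group, and the reason was not tested. Without implanted cGAMP 2, the log2 changes of these 6 genes in implanted ECs were 1.99 (Adar) to 4.39 (Ifih1). That of Mavs was -0.87, and all had an adjusted p under the threshold.

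The make-up of the RIG-I-like receptor transcripts shifted with cGAMP in each tissue. Levels per length were summed over Ddx58, Ifih1 and Dhx58, and each gene was given as a share of the sum in its library. The Ddx58 share was 56.8% ± 0.879 (SD, n = 3) in normal ECs under PBS and 25.0% ± 1.64 under cGAMP, while the Ifih1 share went from 34.6% ± 1.49 to 64.1% ± 2.46. Across tissues, the ratio of Ifih1 to Ddx58 lay between 0.419 and 0.647 in the 9 PBS libraries and between 1.92 and 2.86 in the 9 cGAMP libraries. The ranges of both treatments stayed apart in every tissue, with Ddx58 ahead in each PBS library and Ifih1 ahead in each cGAMP library. The ratio of Dhx58 to Ddx58 was highest in implanted ECs under cGAMP, 0.887 ± 0.034 (SD, n = 3), while normal ECs had 0.434 ± 0.0417 and MMTV-PyMT ECs 0.546 ± 0.0617 with the same treatment. Ratios within a library do not depend on the scaling between libraries, and no test was run on them.

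**Figure D3:**
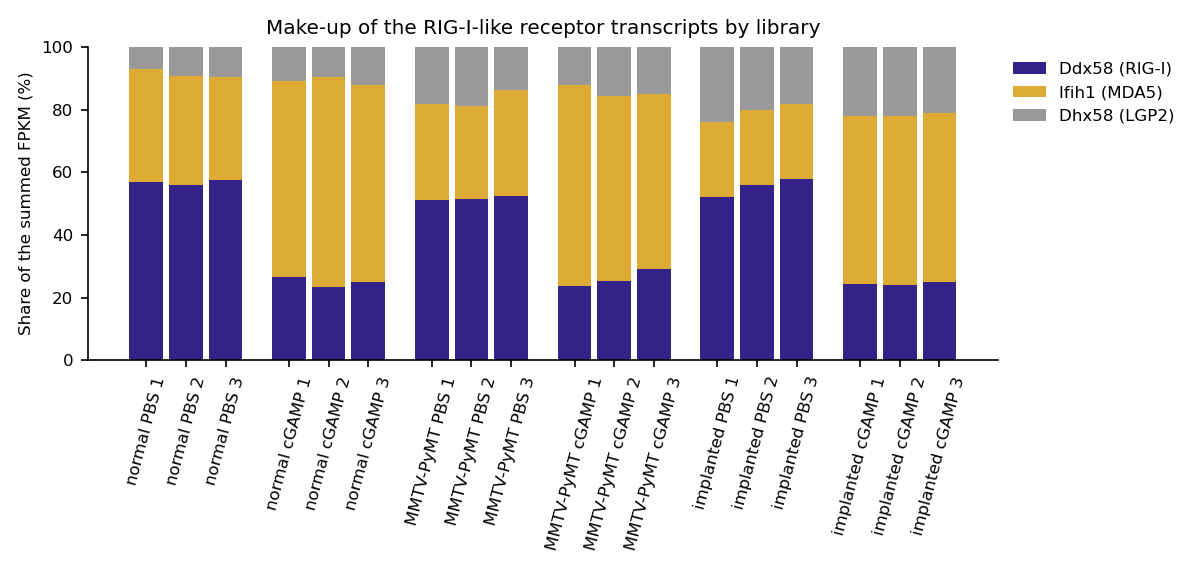
Share of Ddx58, Ifih1 and Dhx58 in their summed FPKM (%) in each of the 18 libraries, 1 bar per library. Ddx58 is the largest part in each PBS library and Ifih1 in each cGAMP library, and among cGAMP libraries the Dhx58 part is largest in those of implanted ECs.

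The sum of both MAVS-dependent sensors, Ddx58 and Ifih1, was set against Mavs, since the sensors rose while the adaptor did not. Under PBS the sum was 1.93 to 5.79 times the Mavs value in the 9 libraries, and under cGAMP 18.9 to 125 times. By group, the ratio under PBS and cGAMP was 2.30 ± 0.549 and 25.3 ± 7.06 (SD, n = 3) for normal, 2.84 ± 0.37 and 28.4 ± 1.23 for MMTV-PyMT, and 4.89 ± 0.78 and 98.3 ± 22.9 for implanted ECs. Implanted ECs were highest under both treatments without overlap, and normal and MMTV-PyMT ECs overlapped under both. These are ratios of transcripts, and protein was not measured in these libraries. PKR and ADAR1, which both bind double-stranded RNA, also shifted in proportion, and the ratio of Eif2ak2 to Adar was 0.943 to 1.38 in the PBS libraries and 1.44 to 2.16 in the cGAMP libraries.

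Whether the response to cGAMP differed between tissues was tested as a difference of log2 changes in the same fit. The response of implanted ECs exceeded that of MMTV-PyMT ECs for Tlr3, by 0.86 (SE 0.19, adjusted p = 0.00704), and Mavs fell further in implanted ECs, with a difference of -0.68 (SE 0.16, adjusted p = 0.00990). So 1 of 7 was higher, against 7.34% of all tested genes, and 1 lower, against 3.72%. Neither reached 2-fold, as 1.85% (higher) and 0.629% (lower) of tested genes did. The Tlr3 difference was 0.37 with an adjusted p of 0.171 after quantile normalization, and the Mavs difference passed under all 27 alternatives. For the other 5 the differences did not pass, with 95% intervals of -0.33 to 0.47 for Ddx58, 0.12 to 0.90 for Ifih1, 0.16 to 1.23 for Dhx58, -0.10 to 1.09 for Eif2ak2 and -0.04 to 0.71 for Adar. Without implanted PBS 1, the library with the highest PBS values of 6 genes, the differences of Ifih1 (0.65, adjusted p = 0.0247) and Dhx58 (0.93, adjusted p = 0.00967) passed as well. The direction of the small Ddx58 difference was turned by both rescalings, to -0.12 with total recovered reads and to -0.42 with quantile normalization.

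Against normal ECs, the response of implanted ECs was larger for Tlr3, by 1.30 (SE 0.19, adjusted p = 0.000203), for Adar, by 0.73 (adjusted p = 0.00874), and for Ifih1, by 0.70 (adjusted p = 0.0143). These were 3 of 7, against 12.5% of all tested genes higher, and 0 were lower in the limma fit, against 6.09%, also with 0 lower at an unadjusted p under 0.05. Tlr3 alone differed by at least 2-fold, against 3.75% higher and 0.937% lower at that size. Tlr3 passed under all 27 alternatives. Adar and Ifih1 did not pass when values were scaled to total recovered reads (0.41, adjusted p = 0.0851, and 0.37, adjusted p = 0.136) or quantile normalized (0.31 and 0.15), and Mavs then passed with total reads, at -0.55 (adjusted p = 0.0294). Ddx58 (0.43), Dhx58 (0.54) and Eif2ak2 (0.54) did not pass. With quantile normalization the differences of Ddx58 and Dhx58 were -0.10 and -0.07. The 2 comparisons share the implanted libraries, so their values are not independent.

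Between MMTV-PyMT and normal ECs, no difference of response passed for the 7 genes (0 of 7 by limma in each direction, against 5.48% higher and 2.90% lower), and 3 had an unadjusted p under 0.05. Those 3 were Tlr3, with a difference of 0.45 (adjusted p = 0.155), Adar, with 0.39 (adjusted p = 0.188), and Mavs, with 0.35 (adjusted p = 0.190). None was 2-fold, against 1.28% of tested genes higher and 0.472% lower. The share of all tested genes with an unadjusted p under 0.05 was not calculated. Whether 3 of 7 is more than that share therefore cannot be said, and no difference is claimed from this count. The 95% intervals reached 0.76 for Ddx58 and 0.59 for Ifih1.

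**Figure D4:**
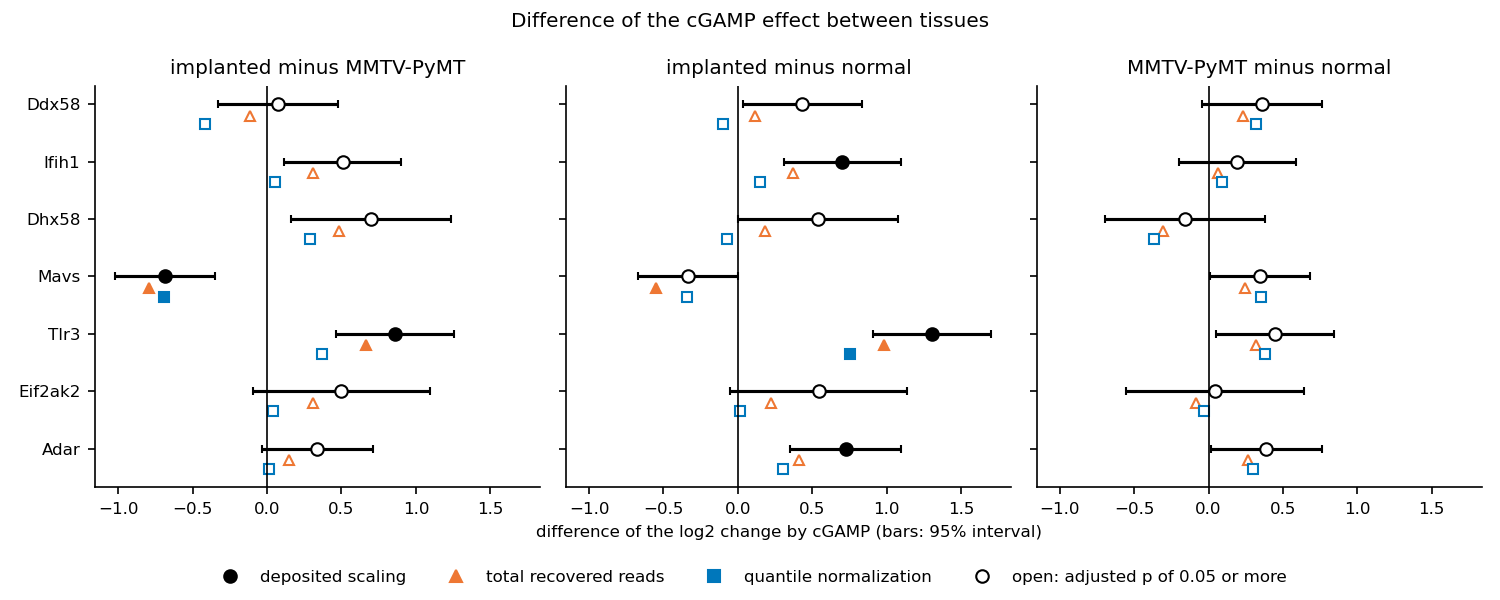
Difference of the log2 change by cGAMP between tissues for each gene, with 95% intervals (black, values as deposited), and the same after scaling to total recovered reads (triangles) or quantile normalization (squares), with filled symbols for an adjusted p under 0.05. Tlr3 in implanted minus normal ECs and Mavs in implanted minus MMTV-PyMT ECs are filled under all 3 scalings, and the other filled circles lose a filled symbol under at least 1 of them.

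Levels of the 7 genes under PBS were also compared between tissues. Implanted ECs had higher levels than MMTV-PyMT ECs for 5 of 7, against 20.8% of all tested genes, with 0 lower by limma, against 24.6%, and also 0 lower at an unadjusted p under 0.05. Dhx58 was 2.55-fold higher on group means (log2 difference 1.10, adjusted p = 0.000149) and Ddx58 2.17-fold higher (1.04, adjusted p = 1.76e-05). Adar (0.56), Ifih1 (0.56) and Tlr3 (0.47) were higher too, and Eif2ak2 (0.37) and Mavs (0.14) did not pass. Both Dhx58 and Ddx58 passed 2-fold, against 4.28% of tested genes higher and 3.05% lower.

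Compared with normal ECs under PBS, implanted ECs had higher levels of 6 of 7, against 25.0% of tested genes, and a lower level of Mavs, against 23.6%. Dhx58 was 4.63-fold higher (log2 difference 1.70, adjusted p = 1.17e-06), and Ddx58 and Tlr3 were 1.84-fold and 1.81-fold higher. At 2-fold on the log2(FPKM + 1) scale Dhx58 was the only one of the 7, against 5.74% higher and 5.71% lower. Eif2ak2 (0.61), Adar (0.56) and Ifih1 (0.34) differed less. The Ifih1 and Eif2ak2 calls were lost with total recovered reads (0.18 and 0.45) and without implanted PBS 1 (0.20 and 0.45), and the Mavs call (-0.35) without implanted PBS 2, normal PBS 1 or normal PBS 3 (-0.32 to -0.27). The Ifih1 call was also lost without normal PBS 1 or normal PBS 3 (0.33 and 0.30) and when only the compared groups were fitted (0.34), and the Eif2ak2 call without normal PBS 1 (0.58).

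MMTV-PyMT ECs had more Dhx58 (0.60, adjusted p = 0.00905) and Tlr3 (0.33, adjusted p = 0.0451) than normal ECs under PBS, and less Mavs (-0.50, adjusted p = 0.00138). The 2 of 7 higher were near the 29.8% of all tested genes, and the 1 of 7 lower was below the 26.6%. None of these genes was 2-fold, against 6.24% higher and 7.67% lower. The Tlr3 call was lost in 11 of 27 alternatives, which are given with the dependence on processing, and the Dhx58 call without MMTV-PyMT PBS 2 (0.47). Adar levels in normal and MMTV-PyMT ECs under PBS were 7.89 ± 0.318 and 7.89 ± 0.441 FPKM (SD, n = 3), and the 95% interval of the log2 difference was -0.26 to 0.26. Under PBS, summed epithelial markers were 313 to 395 FPKM in normal, 838 to 905 in MMTV-PyMT and 345 to 494 in implanted ECs, summed mural markers 800.4 to 911, 197 to 273 and 182 to 222 FPKM, and summed fibroblast markers 49.4 to 56.3, 83.3 to 134 and 182 to 212 FPKM. Most of the fibroblast sum was Col1a1, with means of 33.8, 90.5 and 186 FPKM, and the other fibroblast markers did not follow its order. Dcn had 11.2, 6.84 and 2.25 FPKM, Lum 6.28, 9.84 and 2.21, and Pdgfra 2.34, 3.31 and 2.41. The part of these cell types in the differences between tissues was not tested.

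Other genes of the same pathways were taken from 5 lists with 60 genes in all, of which 59 were listed and tested. In normal ECs, cGAMP raised 24 of the 59 and lowered 11. MMTV-PyMT ECs had 14 higher and 1 lower, and implanted ECs 28 higher and 10 lower. Over all tested genes the higher shares were 13.7%, 7.42% and 20.3% and the lower shares 18.2%, 4.57% and 18.8%, so the lowered genes of these lists were near the share of all genes in normal and implanted ECs. The median log2 change of the 59 was 0.04, 0.05 and 0.18, against 1.65, 2.01 and 2.56 for the 7 genes.

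The list of RIG-I-like receptor regulators held 15 tested genes, of which normal ECs had 6 higher and 3 lower, MMTV-PyMT ECs 4 and 1, and implanted ECs 6 and 3 (all tested genes 13.7% and 18.2%, 7.42% and 4.57%, 20.3% and 18.8%). Trim25, a ubiquitin ligase that activates RIG-I, rose by a log2 change of 1.53, 1.40 and 1.43, in the order of tissues used above (largest adjusted p = 1.38e-09). Zc3hav1, which encodes the antiviral zinc finger protein ZAP, rose by 1.73, 1.98 and 1.97, and the helicase gene Ddx60 by 1.95, 2.25 and 3.02. All 3 rose at least 2-fold in each tissue. Ddx60 means were 1.70, 1.01 and 5.08 FPKM under PBS and 9.40, 8.67 and 46.4 FPKM under cGAMP. The pseudocount of 1 understates the Ddx60 changes most in normal and MMTV-PyMT ECs, where it was lowest.

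Of 17 signalling genes below MAVS, normal ECs had 8 higher and 3 lower, MMTV-PyMT ECs 6 and 0, and implanted ECs 12 and 3. The 3 lower in normal and in implanted ECs are near the 18.2% and 18.8% of all tested genes, while higher shares over all genes were 13.7%, 7.42% and 20.3%, and 4.57% were lower in MMTV-PyMT ECs. Irf7, the interferon-inducible transcription factor of the pathway, had means of 5.84, 10.2 and 46.3 FPKM under PBS and 34.7, 44.5 and 191 FPKM under cGAMP, and its log2 change in normal ECs was 2.39 (SE 0.37). Tbk1, the kinase that phosphorylates IRF3 and that STING also triggers, rose by 0.49, 0.52 and 1.60. Casp8 rose by 0.43, 0.60 and 1.65.

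Of the 7 TLR3 signalling genes, 3 of which are also on the list below MAVS, normal ECs had 2 higher and 2 lower, MMTV-PyMT ECs 2 and 0, and implanted ECs 4 and 1, beside 13.7%, 7.42% and 20.3% of all tested genes higher and 18.2%, 4.57% and 18.8% lower. Ripk3, the kinase of necroptosis, rose by 1.74, 1.60 and 2.06, and Ripk1 by 0.70, 0.74 and 0.71. Unc93b1, which carries TLR3 to endosomes, rose in implanted ECs (0.88, adjusted p = 0.000325) and stood at -0.02 (adjusted p = 0.925) and 0.12 (adjusted p = 0.667) in normal and MMTV-PyMT ECs.

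The list around PKR and phosphorylation of the initiation factor eIF2 held 12 tested genes, with 5 higher and 2 lower in normal, 1 and 0 in MMTV-PyMT, and 4 and 3 in implanted ECs. For all tested genes these shares were 13.7% and 18.2%, 7.42% and 4.57%, and 20.3% and 18.8%, so the 1 higher in MMTV-PyMT and the 2 lower in normal ECs are near them. Ppp1r15a, whose product GADD34 removes the phosphate that PKR adds to eIF2, rose by 1.13, 1.496 and 1.86. Atf4, the transcription factor translated when eIF2 is phosphorylated, rose in normal (0.81) and implanted ECs (0.52) and had a change of 0.07 (adjusted p = 0.693) in MMTV-PyMT ECs. Eif2ak3, the gene of the related eIF2 kinase PERK, fell by 0.38 in normal and 0.64 in implanted ECs on the log2 scale, with a change of -0.26 (adjusted p = 0.0752) in MMTV-PyMT ECs. PKR and PERK transcripts moved in opposite directions in normal and implanted ECs.

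Among 11 genes for binding, editing or degrading structured nucleic acids, 4 rose and 1 fell in normal, 2 and 0 in MMTV-PyMT, and 4 and 1 in implanted ECs, where all tested genes gave 13.7% and 18.2%, 7.42% and 4.57%, and 20.3% and 18.8%. Zbp1, a sensor of Z-form RNA that shares its Z-binding domain with ADAR1, rose by 1.31, 1.27 and 2.14. Its means were 1.05, 1.90 and 17.3 FPKM under PBS and 4.27, 5.86 and 77.2 FPKM under cGAMP. The pseudocount of 1 understates the changes from the low normal and MMTV-PyMT levels. Samhd1, a nucleotide phosphohydrolase, rose by 0.88, 1.52 and 2.84. Stau1, a double-stranded RNA-binding protein gene, rose in normal (0.28) and implanted ECs (0.68), and its change of 0.24 in MMTV-PyMT ECs did not pass (limma, adjusted p = 0.106).

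**Figure D5:**
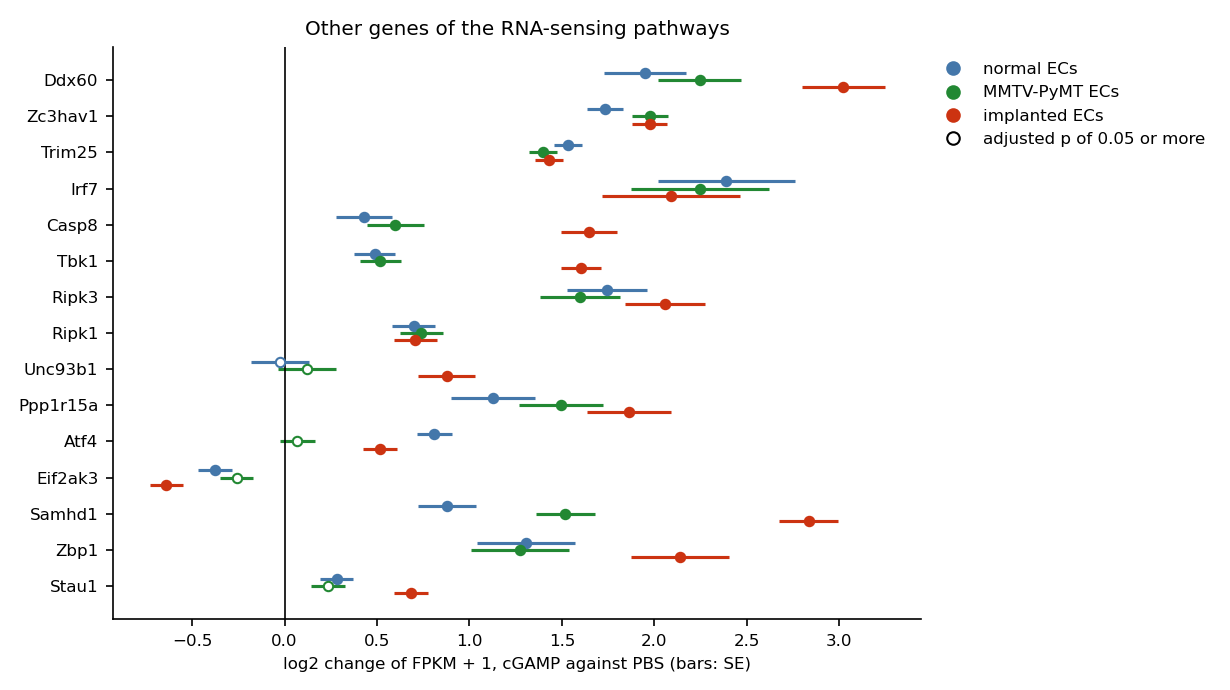
Log2 change of FPKM + 1 by cGAMP against PBS, with its SE, for 15 other genes of the RNA-sensing pathways in the 3 tissues (open circles: adjusted p of 0.05 or more). Ddx60, Irf7 and Ripk3 rise by more than 1 in each tissue, Tbk1 and Casp8 lie farther right in implanted ECs, and Eif2ak3 lies below 0.

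Over the 18 libraries, 6 of the genes followed each other closely and Mavs ran against them. The Pearson correlation of log2(FPKM + 1) between pairs of the 6 was 0.91 to 0.988, and between Mavs and each of them -0.889 to -0.75. These values describe 18 libraries that fall into 6 groups and share their scaling. The tested genes with the pattern most like Ifih1 were Cmpk2 (r = 0.9946), Rsad2 (0.994) and Zc3hav1 (0.9929), and most like Ddx58 were Parp9 (0.9945), Ifi202b (0.993) and Dtx3l (0.9923). Trafd1 was nearest to Tlr3 (0.9926), Adar (0.9922) and Dhx58 (0.9905). Following these came Tbrg1 (0.9885) and Rnf139 (0.9881) for Tlr3, Plscr2 (0.9874) and Ifi202b (0.9852) for Adar, and Ppa1 (0.9884) and Chmp4b (0.9873) for Dhx58. Eif2ak2 was closest to Daxx (0.9925), Tent4a (0.9915) and Slfn9 (0.9909). For Mavs the nearest genes had lower values, among them Rarg (0.9441) and B230219D22Rik (0.9375).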

How the data were processed

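Sorted live CD45-negative, CD31-positive cells were sequenced with a directional kit (NEBNext Ultra II) as paired-end reads. Per the labels and the methods of the study, reads were checked with FastQC, aligned to mm10 with STAR 2.7 and counted with HTSeq. Strand use and the step from counts to FPKM were not stated. The authors deposited 1 table of FPKM values for 16248 genes in 18 libraries, and no value was 0. Of the columns, 6 carry a treatment and a number only and were taken as normal fat pad, the only tissue left, and 0 columns had no matched sample. FPKM were whole multiples of 1 step per gene and library, which gave whole reads (within 0.01) for 16247 genes (99.99%). A single read on 1 kb was worth 0.0753 to 0.12 FPKM. All 18 pairs of replicates differed by more than sampling noise (chi-square per gene 4.08 to 31.3).

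Genes with FPKM of at least 1 in at least 3 libraries (13983, with 2265 below the filter) were fitted as log2(FPKM + 1) with limma 3.58.1 in R 4.3.3 (1 mean per group over 18 libraries, eBayes with trend, two-sided, Benjamini-Hochberg over all tested genes). A gene rose or fell when its adjusted p was under 0.05. Fold changes of means are on the FPKM scale, and log2 changes understate low genes. The script was tested on simulated data. Named genes were the 7 members, the 3 genes per list with the largest summed absolute change by cGAMP plus any list gene at least 2-fold in 1 direction in each tissue, and the 3 nearest genes by correlation. A result that falls under these rules is not reported here. Members and lists were chosen with earlier results of these data known. Gene positions are from GENCODE M21, promoter windows from RefSeq (GRCm38.p6). Alternatives were a pseudocount of 0.1, no filter, a mean FPKM of at least 5, scaling to total recovered reads, quantile normalization, voom on recovered reads, eBayes without trend, only the compared groups, a replicate block, a 2-fold limit and each library left out. Reads were counted without molecular identifiers, so depth covers counting error only.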

Additional observations from a re-analysis of the deposited data

Results flagged for a closer look

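The effect of cGAMP differed in at least 1 comparison of tissues, by the test of the difference itself, for Tlr3, Mavs, Adar and Ifih1. Between implanted and MMTV-PyMT ECs the difference of log2 changes was 0.86 for Tlr3 and -0.68 for Mavs, 1 of 7 in each direction, where 7.34% of all tested genes were higher and 3.72% lower. Between implanted and normal ECs it was 1.30 for Tlr3, 0.73 for Adar and 0.70 for Ifih1 (limma, adjusted p = 0.00704, 0.0099, 0.000203, 0.00874 and 0.0143 in the order given, 3 libraries per group). The second comparison thus had 3 of 7 higher, against 12.5% of all tested genes. The Adar and Ifih1 differences and the first Tlr3 difference depend on the scaling between libraries, as given in the report.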

How the results depend on the processing

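Of 1701 alternative values of the 7 genes (27 settings, 9 comparisons), 1648 kept their direction and their side of the threshold, 28 lost and 7 gained the threshold, and 18 changed direction. In the 3 comparisons of cGAMP with PBS, 0 changed. With the 2-fold limit added, Mavs no longer counted as lower in normal or implanted ECs (0 and 0), Tlr3 and Mavs no longer differed between implanted and MMTV-PyMT ECs (0 and 0), and 1 gene was left higher in implanted than in normal responses. Under PBS that limit left 2 genes higher in implanted than in MMTV-PyMT ECs, 1 higher and 0 lower than in normal ECs, and 0 higher and 0 lower in MMTV-PyMT than in normal ECs. Quantile normalization gave 0 higher in the implanted response over MMTV-PyMT, 1 over normal, and 1 higher and 2 lower in MMTV-PyMT against normal ECs under PBS. Total recovered reads gave 1 higher and 1 lower in the implanted response over normal. Leaving out 1 library gave 1 to 3 higher for the implanted response over MMTV-PyMT, 0 to 1 lower for implanted against normal and 0 to 2 higher for MMTV-PyMT against normal ECs under PBS. Without a trend the last count was 1.

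Directions turned for small differences. Ddx58 in the implanted response over MMTV-PyMT was -0.42 with quantile normalization, -0.12 with total reads and -0.024 to 0.19 with 1 library left out, and over normal -0.10 with quantile normalization, where Dhx58 was -0.075. Eif2ak2 in the MMTV-PyMT response over normal was -0.030 with quantile normalization, -0.087 with total reads and -0.14 to 0.29 with a library left out. Adar in MMTV-PyMT against normal ECs under PBS was -0.064, -0.022 and -0.00097 with quantile normalization, total reads and voom, and -0.027 to 0.041 with a library left out. The causes were not tested. The Tlr3 call in MMTV-PyMT over normal ECs under PBS was lost without any 1 of normal PBS 1 or 2, MMTV-PyMT PBS 1, 2 or 3, MMTV-PyMT cGAMP 2, implanted PBS 2 or implanted cGAMP 3 (adjusted p 0.0513 to 0.169), without a trend (0.0528) and with quantile normalization (0.0677).

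The replicate numbers gave no clear pairing, since 8 of 45 same-number pairs had deviations that correlated over 0.1. Their median r was -0.013, against 0.01 for the 90 other pairs. Experiments that do not follow the replicate number cannot be seen this way. With the replicate block, 1 gene in place of 2 was higher in MMTV-PyMT than in normal ECs under PBS, where Tlr3 had an adjusted p of 0.064. Counting is least precise for Dhx58 under PBS in normal ECs (from 55 reads) and for Mavs (75 to 358 reads per library).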
